A study of Mus musculus with 9 samples.

Results

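Chromosome 3 was described in 9 mouse mammary tumours through all array probes that the files place on it. These were 53681 of the 963261 distinct probes (5.57%), lying between chr3:3000029 and chr3:159598830 with a median spacing of 1897 bp. The chromosome was chosen by its measured level: it had the highest mean log2 ratio among the 19 autosomes of these same tumours. Its level against the reference DNA, its segments and their recurrence are therefore given as a description with no test. Each probe value was the log2 ratio of tumour DNA to reference DNA, centred on the median of the autosomal probes of its array. A value of 0 marks the autosomal median of that tumour, and a positive value marks more tumour DNA.

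The tumours came from mice with floxed Rb and p53 genes (Rbf/f;p53f/f) on a mixed strain background, in which Cre recombinase removes both genes. In 2 tumours, labelled Ad-CMVcre transplants and called Ad-Cre here, Cre came from an adenovirus. In 7 tumours Cre came from an MMTV transgene, whose viral promoter is active in mammary epithelium and not only there: 5 were labelled transplants, 1 came from a parous and 1 from a nulliparous mouse. The reference was tail DNA pooled from tumour-free mice of the same mixed background, hybridised in the green channel of every array, with tumour DNA in the red channel. The labels give no ages, and they do not say what was transplanted or whether transplants shared a donor, so p-values between groups measure the spread between these tumours.

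Mouse chromosomes carry the centromere at one end, so each has a single long arm, and proximal here means the low coordinates. Missegregation of an entire chromosome shifts its whole length by the same amount, whereas a break followed by loss or gain leaves a step in the profile. Rb holds back entry into the cell cycle and p53 limits the growth of cells with damaged or miscounted chromosomes. Chromosome 3 carries many genes with known roles in cancer. They include Pik3ca, a catalytic subunit of PI 3-kinase, Sox2, a stem cell transcription factor, Prkci, an atypical protein kinase C, and Ect2, an exchange factor that acts in cell division. They also include Ccna2, which encodes cyclin A2, Fgf2, a growth factor, Mcl1, which protects cells from apoptosis, Notch2, a receptor, Nras, a small GTPase, and Lef1, a transcription factor of Wnt signalling. All 20 genes of the list used here are assigned to chromosome 3 by the GRCm38.p6 gene table, among 983 protein-coding genes. The files name no genome build, and on 10 of the 20 chromosomes compared the probes run past the last gene of that table. Genes could therefore not be placed inside the steps and segments below, and each gene is covered only by the whole-chromosome level.

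The arrays were alike in signal, with a median reference signal of 21.8 to 32.4 times and a median tumour signal of 14.9 to 17.9 times local background. Single probes on chromosome 3 had a noise SD of 0.15 to 0.18 (log2). On chromosome 11, which carries Trp53, a run of 4 probes (chr11:69397121-69402566) was at 30.7% to 59.8% of the level of its flanks in 8 tumours. Whether the run lies in Trp53 could not be looked up. The library labelled MMTV-Cre transplant 2 was at 97.8% there and stands apart from the rest. The mean level, gained share, length gained in 4 or more tumours and group differences in level are therefore given with and without it. In DNA from bulk tissue, fewer tumour cells and a smaller change per cell cannot be told apart, and a level is an average over all cells of the piece.

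Chromosome 3 was above the autosomal median in 9 of 9 tumours (8 of 9 with each array centred on its mode), at a mean of 0.25 ± 0.21 (log2, SD, n = 9). Leaving out the library labelled MMTV-Cre transplant 2 gave 0.19 ± 0.11 (n = 8), and in both cases it was the highest mean of the 19 autosomes. The next means were 0.18 for chromosome 15 and 0.16 for chromosome 5 over 9 tumours, and 0.17 for chromosome 8 over 8 tumours. The Ad-Cre tumours had chromosome 3 levels of 0.27 and 0.01. The MMTV-Cre transplants had levels of 0.14, 0.75, 0.33, 0.30 and 0.13, the parous tumour 0.26 and the nulliparous tumour 0.10. These log2 values are 20.6% and 0.808% more DNA than the autosomal median in the Ad-Cre tumours, and between 9.36% and 67.8% more in the MMTV-Cre transplants. The parous tumour had 19.4% and the nulliparous tumour 7.46% more. The library labelled MMTV-Cre transplant 2 was far above the other 8, and Ad-Cre transplant 2 was nearly level with its own autosomes. Its chromosome 3 level of 0.01 lay among other autosomes that spanned -0.24 to 0.04.

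**Figure D1:**
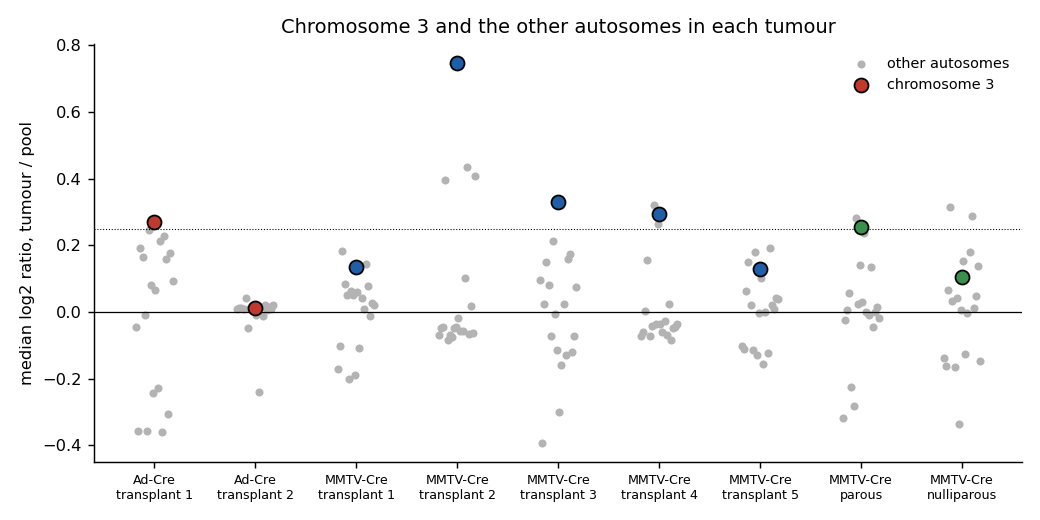
Median log2 ratio of tumour to pool for chromosome 3 (large outlined point) and for each of the 18 other autosomes (small grey points) in each of the 9 tumours, with large points red for Ad-Cre, blue for MMTV-Cre transplants and green for the other MMTV-Cre tumours; the dotted line is the gain threshold of 0.25. Chromosome 3 is the highest point in Ad-Cre transplant 1 and in the libraries labelled MMTV-Cre transplants 2 and 3.

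Within a tumour, chromosome 3 was not always the most gained. It ranked first of 19 autosomes in Ad-Cre transplant 1, in the library labelled MMTV-Cre transplant 2 and in transplant 3. It ranked second in the parous tumour and in MMTV-Cre transplant 4, behind chromosome 8 in both. Its rank was 3 in MMTV-Cre transplant 1, 4 in MMTV-Cre transplant 5 and 7 in Ad-Cre transplant 2. In the nulliparous tumour it ranked sixth, and chromosome 5 was highest at 0.31. Chromosome 3 exceeded chromosome 5 in 7 of 9 tumours and chromosome 15 in 5 of 9. Gained segments covered at least 80% of chromosome 3 in 3 tumours, against 1 tumour each for chromosomes 5 and 15. For both of these it was the library labelled MMTV-Cre transplant 2 (99.8%), which is also among the 3 for chromosome 3. Without it the highest shares were 68.4% and 66.6% on chromosomes 5 and 15, in the nulliparous tumour. On chromosome 3 the highest was then 93.5%, in MMTV-Cre transplant 3.

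Except in Ad-Cre transplant 2, most of the excess lay in the tumour channel. There the chromosome 3 median minus the autosomal median of the log2 signal ran from -0.01 to 0.66 between tumours (SD 0.195). In the reference channel of the same arrays the same difference ran only from -0.04 to -0.02 (SD 0.0045). For Ad-Cre transplant 2 it was -0.01 in the tumour channel and -0.02 in the reference channel. Of the 1546 windows of 100 kb on chromosome 3 with at least 3 probes, 1002 were above 0 in 8 or more tumours (64.8%), and across the autosomes 16.7% of windows were. On chromosome 3, 383 windows (24.8%) were above 0 in 9 tumours, against 6.71% of all autosomal windows.

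The profiles along the chromosome ranged from whole-length shifts to stepped profiles. For each tumour the chromosome was cut into segments of even level, and a segment at 0.25 or more was called gained, at -0.25 or less lost. In 3 tumours gained segments covered at least 80% of the probed length: 99.6% in the library labelled MMTV-Cre transplant 2, 93.5% in MMTV-Cre transplant 3 and 80.4% in MMTV-Cre transplant 4, just inside that limit (75.2% with dim and outlier spots kept). The chromosome was also split into proximal, middle and distal stretches of equal length. In these 3 tumours the distal minus the proximal stretch was 0.02, 0.00 and 0.05 (log2), small beside their levels. In MMTV-Cre transplant 4 the level still changed inside the proximal stretch. It was 0.12 up to chr3:24000538 and 0.31 from chr3:26523890. The gained share was 49.6% in Ad-Cre transplant 1 and 16.1% in the parous tumour. In the other 4 tumours it was at most 2.31%. Over all tumours the gained share was 38.0% ± 43.1 (SD, n = 9), and 30.3% ± 38.9 without the library labelled MMTV-Cre transplant 2 (n = 8).

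The line between gained and not gained ran through tumours with flat profiles. The parous tumour had a level of 0.26 and 99.5% of its windows above 0, but its longest segment, chr3:60442874-126815665, was at 0.23, just outside the threshold. Its gained segments of at least 5 Mb were chr3:27611182-35579187 at 0.31 and chr3:146518378-159598830 at 0.29, just inside it. At a threshold of 0.15, 99.8% of the chromosome was gained in the parous tumour. MMTV-Cre transplants 1 and 5 were also even along the length, with 99.5% and 93.9% of windows above 0. Their 3 stretches ran from 0.12 to 0.15 in transplant 1 and from 0.12 to 0.14 in transplant 5, below the threshold throughout. A step of 0.2 or more between 2 segments of at least 1 Mb, called a large step here, was found in 2 of the 9 tumours.

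Ad-Cre transplant 1 had the most broken chromosome 3, with 3 large steps that divided it into 4 blocks. The proximal block, chr3:3000029-74265825, was at 0.64 over 71.3 Mb, or 1.56 times the autosomal median. The second, chr3:74273398-98568521, was at 0.23 over 24.3 Mb. The third, chr3:98575059-135303872, was lost at -0.36 over 36.7 Mb, or 0.778 times the autosomal median. The last, chr3:135305387-159598830, was back at 0.20. Gain and loss thus lay on the same chromosome, which had 49.6% of its length gained and 23.4% lost. The autosomal median of this tumour lay 0.14 below the mode of its probes, and centred on the mode its chromosome 3 level was 0.13.

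The same tumour had short segments inside these blocks. Near the end of the proximal block chr3:72555523-72743392 was at -0.01, between neighbours at 0.62 and 0.47. The segment chr3:96015612-96052043, of 20 probes, was at -0.38, and those probes were at -0.65 relative to their flanks. There the parous tumour was also low, at -0.30, the other 7 tumours lay between -0.10 and 0.01, and the reference signal was 0.729 to 0.817 of the autosomal median. Within the lost block, chr3:100421313-100648946 rose out to 0.50, with neighbours at 0.13 and -0.34. In the last block chr3:154620848-154840988 fell to -0.42, and its 120 probes were 0.60 below the flanks in this tumour, while the other 8 tumours lay between -0.08 and 0.01 of theirs. With 12 steps of 0.2 or more, this tumour had 8.39% of its autosomal breakpoints on chromosome 3.

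The nulliparous tumour had a single large step. The proximal 83.8 Mb, up to chr3:86772227, were at -0.01, and the distal 72.8 Mb, from chr3:86773559, were at 0.22, or 1.16 times the autosomal median. The distal minus the proximal stretch was -0.83 in Ad-Cre transplant 1 and 0.21 in the nulliparous tumour. The 2 stepped tumours were thus higher at opposite ends of the chromosome, and no large step of one lay at a large step of the other. In the remaining 7 tumours the difference was between -0.02 and 0.05. Over all tumours it averaged -0.07 ± 0.30 (SD, n = 9), and 0.03 without Ad-Cre transplant 1.

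**Figure D2:**
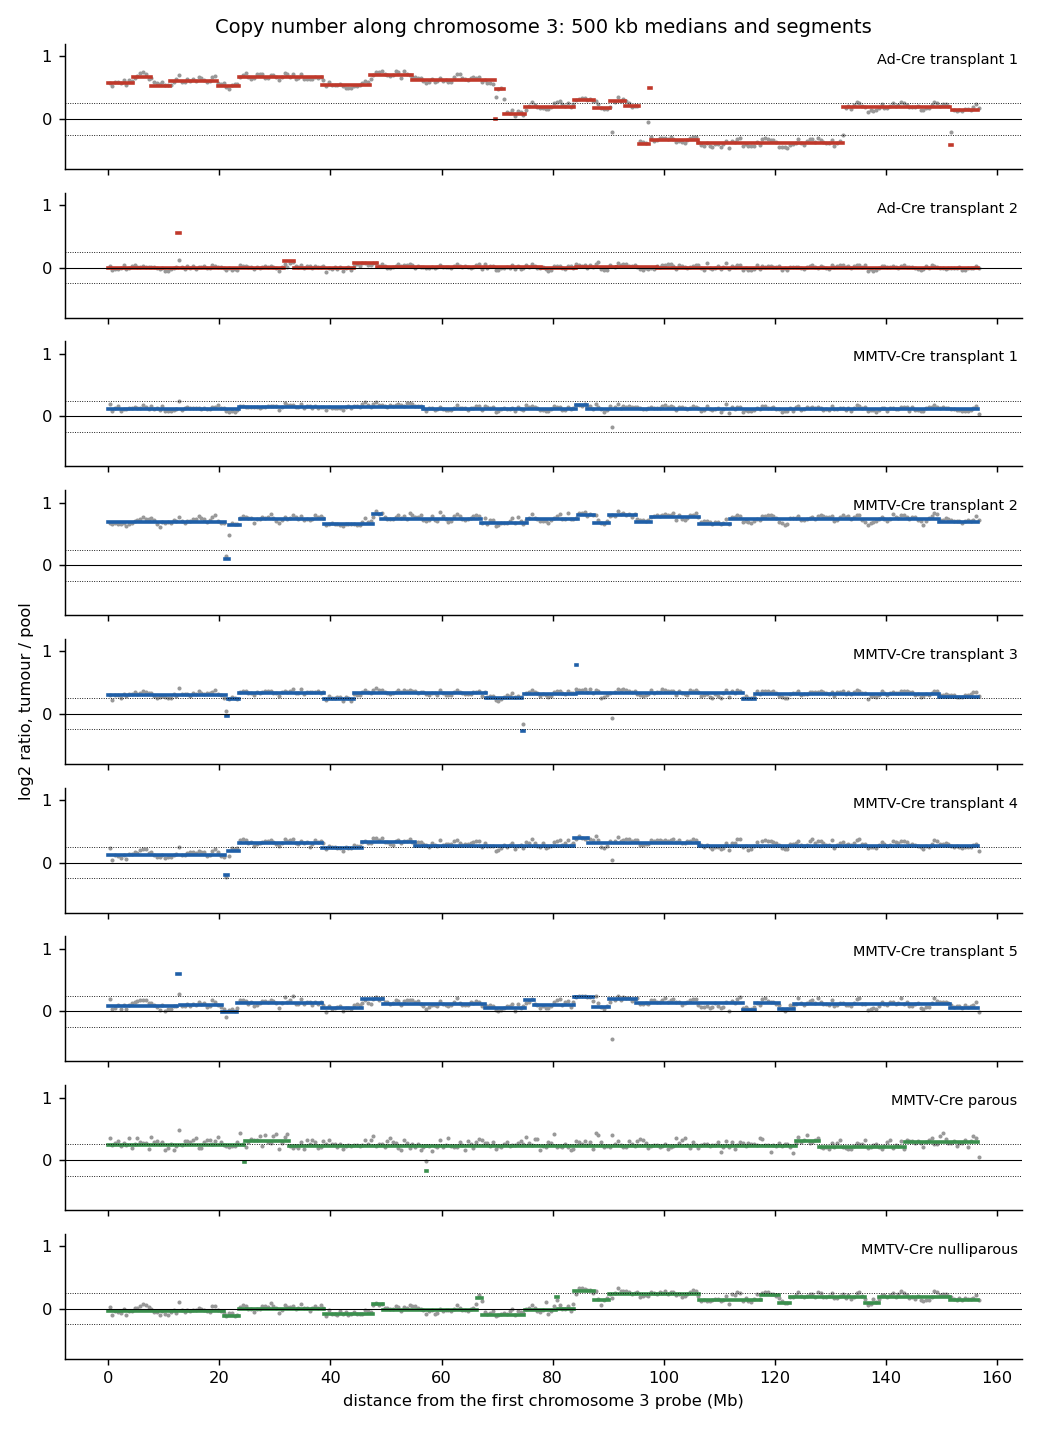
Log2 ratio of tumour to pool (y axis) against distance from the first chromosome 3 probe in Mb (x axis) for the 9 tumours, 1 panel each, with grey points for medians of 500 kb and coloured lines for segments; dotted lines mark 0.25 and -0.25. Ad-Cre transplant 1 shows 4 blocks and the nulliparous tumour 1 step, while the other 7 tumours have no large step; MMTV-Cre transplant 4 is at 0.14 before and 0.31 after its short low segment.

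Lone grey points near the middle of these profiles come from a 500 kb bin with only 3 probes, starting at chr3:93619262 and 8.36 kb across. It was singled out after its values were seen. Its level was -0.21 and -0.96 in the Ad-Cre tumours and ran from -0.45 to 0.80 in the MMTV-Cre tumours.

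Breakpoints on chromosome 3, counted as steps of 0.2 or more between neighbouring segments, numbered 12 and 10 in the Ad-Cre tumours. They numbered 2, 2, 6, 2 and 4 in the MMTV-Cre transplants, 4 in the parous tumour and 3 in the nulliparous one. That is a total of 45, with a mean of 5.0 ± 3.67 (SD, n = 9). Per 10 Mb, chromosome 3 had 0.319 ± 0.235 breakpoints and the other autosomes 0.670 ± 0.161. Most of these steps were edges of segments shorter than 1 Mb, and only 4 of the 45 were large steps. Those were the 3 large steps of Ad-Cre transplant 1 and the 1 of the nulliparous tumour. Of the 45 breakpoints, 18 (40.0%) lay within 250 kb of a breakpoint of another tumour, all of them at the edges of 3 short stretches described next.

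One short stretch was low in the same place in the 3 MMTV-Cre transplants with gained segments over at least 80% of the chromosome. It was singled out after its values were seen. Its segment was chr3:24085993-24703489 at 0.10 in the library labelled MMTV-Cre transplant 2, chr3:24153975-24527847 at -0.03 in transplant 3 and chr3:24012640-24629209 at -0.20 in transplant 4. The edges differed between the tumours, and the stretch common to all 3 was the segment of transplant 3, of 374 kb and 80 probes. Inside it the level minus that of the flanks within 1 Mb was -0.09 and -0.02 in the Ad-Cre tumours. It was -0.06, -0.53, -0.27, -0.40 and -0.18 in the MMTV-Cre transplants, -0.02 in the parous tumour and -0.06 in the nulliparous tumour. The 3 tumours with gained segments over at least 80% of the chromosome had the deepest values, transplant 5 came next, and all 9 differences were below 0. With the library labelled MMTV-Cre transplant 2 left out, the stretch was segmented in 2 tumours. The reference channel there was 0.888 to 0.927 of the autosomal median signal, against at least 0.975 in the flanks.

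In MMTV-Cre transplant 4 the level also differed between the sides of this stretch. Chromosome 3 was at 0.14 proximal to it, -0.27 inside it and 0.31 distal to it. The neighbouring segments of that tumour, at 0.12 and 0.18, were not gained by the threshold, and its gained segments began at chr3:26523890. The levels of the library labelled MMTV-Cre transplant 2 were 0.72 proximal, 0.11 inside and 0.75 distal. In MMTV-Cre transplant 3 they were 0.31 proximal, -0.01 inside and 0.33 distal. The inside levels of transplants 2 and 3 were close to the autosomal median, at 1.08 and 0.990 times it, and that of transplant 4 was 0.829 times it.

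**Figure D3:**
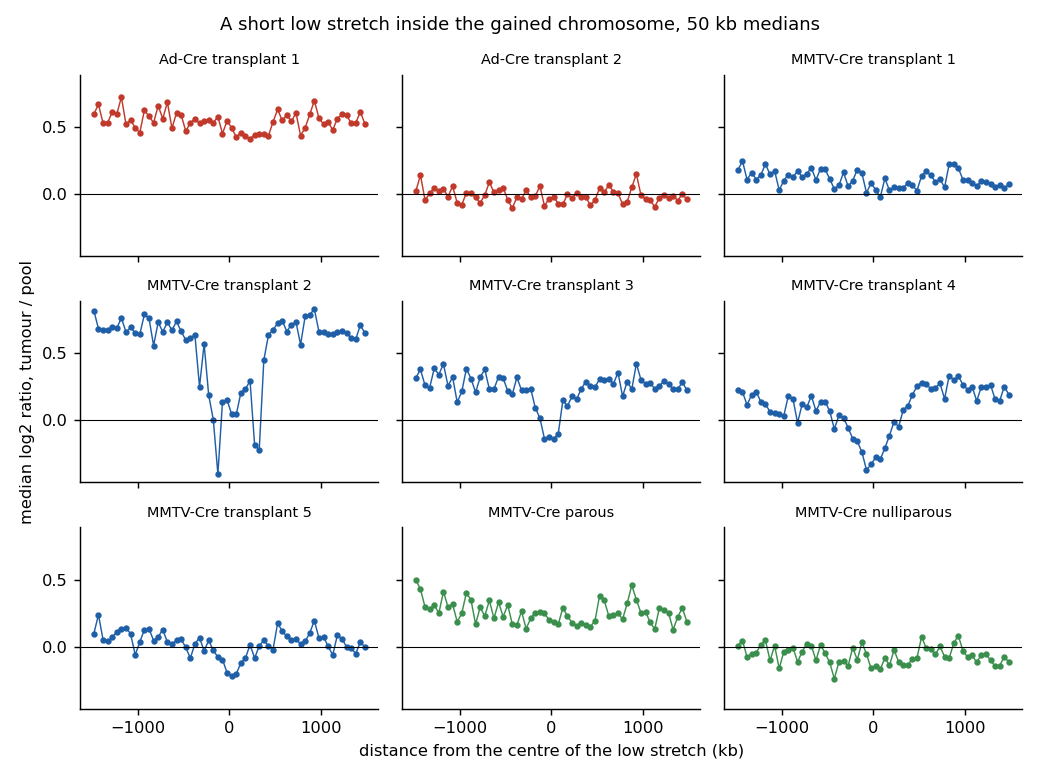
Median log2 ratio of tumour to pool in 50 kb steps (y axis) against distance in kb from the centre of the low stretch (x axis), 1 panel per tumour. The dip is deepest in the libraries labelled MMTV-Cre transplants 2, 3 and 4, where the level falls by 0.53, 0.27 and 0.40 relative to the flanks.

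Short losses of single tumours were also found. In the parous tumour chr3:60290912-60441681, with 100 probes over 151 kb, was 0.32 below its flanks (-0.32), and the other tumours were between -0.08 and -0.03. In MMTV-Cre transplant 3 chr3:77501391-77809294, with 45 probes over 308 kb, was at -0.54 relative to its flanks, and the others lay between -0.07 and -0.03. No other tumour had a short segment at either place.

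A different kind of short locus had high ratios over few probes. By the rule for short loci, chr3:87261448-87290096 (28.6 kb, 9 probes) was the one found in 3 or more tumours. Relative to its flanks it was 1.14 and 1.98 in the Ad-Cre tumours. It was 1.104, -0.55, 0.74, 1.12 and 2.10 in the MMTV-Cre transplants, -0.04 in the parous tumour and -0.09 in the nulliparous tumour. Thus 6 of 9 tumours were at 0.5 or more and the library labelled MMTV-Cre transplant 2 was below its flanks. The reference signal at these probes was 0.0657 to 0.126 of the autosomal median, against 0.980 to 1.01 in the flanks, so these high ratios have a weak reference signal under them. What part the pool's own DNA has in these ratios was not tested.

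A second such locus, chr3:15334657-15895248 (561 kb, 36 probes), was singled out after its values were seen. It was segmented in Ad-Cre transplant 2 at 0.55 and in MMTV-Cre transplant 5 at 0.61. The median of its probes was 0.13 and 0.24 above the flanks in the Ad-Cre tumours and 0.05 to 0.25 above in the MMTV-Cre tumours, and the reference signal was 0.527 to 0.631 of the autosomal median. Ad-Cre transplant 2 had 3 further short segments of 10 probes each, starting at chr3:80920905, chr3:94515927 and chr3:101729416, at 0.84, 0.91 and 0.93. The spread inside them was wide (SD of 5-probe means 0.70 to 1.19), and by the median of their probes they were only 0.31, 0.20 and 0.13 above their flanks. Probes at the same places were above their flanks in 9, 9 and 8 of the 9 tumours. At the last 2 the reference signal was 0.676 to 0.751 and 0.598 to 0.648 of the autosomal median. All 10 breakpoints of that tumour bounded such short segments.

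Counting tumours along the chromosome, 5 was the most that were gained at any 100 kb window, over 7.70% of the windows (11.9 Mb). At least 3 tumours were gained over 93.4% of the windows. At least 4 were gained over 638 of 1546 windows (41.3%, 63.8 Mb), against 4.43% of all autosomal windows. Among the other autosomes the highest shares at 4 or more tumours were 18.6% on chromosome 8 and 10.7% on chromosome 15. Loss reached 1 tumour at most at any window. The length gained in 4 or more tumours was 29.2 Mb without Ad-Cre transplant 1. It was 11.9 Mb without the library labelled MMTV-Cre transplant 2, and likewise without transplant 3 or transplant 4. The 41.3% thus rests on each of 4 tumours.

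The parts gained in 5 tumours were 4 in number. Each of these parts included the library labelled MMTV-Cre transplant 2, so without it none of them reached 5. The longest was chr3:27600001-35600000 (8.0 Mb), gained in Ad-Cre transplant 1, in the libraries labelled MMTV-Cre transplants 2, 3 and 4 and in the parous tumour. Its mean over all tumours was 0.30 ± 0.26 (SD, n = 9). The second, chr3:86800001-90400000 (3.6 Mb), was gained in the same 4 transplants and in the nulliparous tumour, with a mean of 0.31 ± 0.21. Ad-Cre transplant 1 was at 0.30 there, and its autosomal mode lay 0.14 above its autosomal median. Centred on the mode, that tumour was gained neither there nor in its segment at 0.29, chr3:93333234-96014307. The short chr3:15300001-15900000 (0.6 Mb) reached 5 through the few-probe gains of Ad-Cre transplant 2 and MMTV-Cre transplant 5, and chr3:94500001-94600000 (0.1 Mb) through one of Ad-Cre transplant 2. The parts gained in 4 or more included chr3:26600001-41500000 (14.9 Mb), chr3:48600001-72600000 (24.0 Mb), chr3:72700001-74300000 (1.6 Mb) and chr3:93300001-96000000 (2.7 Mb). Further distal they included chr3:100400001-100700000 (0.3 Mb), chr3:101700001-101800000 (0.1 Mb), chr3:126800001-130900000 (4.1 Mb) and chr3:146500001-159600000 (13.1 Mb).

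Of the parts gained in 5 tumours, those of 8.0 Mb and 3.6 Mb each had 1 edge at a step of 0.2 or more. The other edge of each lay at a smaller difference in level. The parous tumour set both edges of the 8.0 Mb part. It was at 0.31 there, with a dip of 80 probes at chr3:27482961-27608885 at -0.04 on the proximal side and a long segment at 0.23, just under the threshold, on the distal side. The proximal edge of the 3.6 Mb part lay at the large step of the nulliparous tumour, from -0.01 to 0.29. Near chr3:86799826 Ad-Cre transplant 1 also passed the threshold, with 0.20 before and 0.30 after. Close to this edge MMTV-Cre transplant 4 rose from 0.27 to 0.39 and MMTV-Cre transplant 5 from 0.09 to 0.24, without crossing the threshold. At the distal edge the next segments were at 0.17 in Ad-Cre transplant 1 and 0.15 in the nulliparous tumour. Near that edge 2 tumours fell without crossing the threshold, the library labelled MMTV-Cre transplant 2 from 0.81 to 0.68 and MMTV-Cre transplant 5 from 0.225 to 0.07. The remaining tumours had no segment edge there. What part a pattern common to the arrays has in these edges was not tested. The 0.6 Mb part was bounded by steps of 0.50 to 0.56 in size in Ad-Cre transplant 2 and MMTV-Cre transplant 5. MMTV-Cre transplants 1 and 5, gained in neither part by the threshold, were at 0.17 and 0.16 in the first and at 0.17 and 0.23 in the second. The levels within chromosome 3 also moved together between tumours. Across the 1546 windows the profiles of the 7 tumours without a large step correlated at a median r of 0.68 (range 0.165 to 0.854, 21 pairs). All arrays share the pool and the probes, so this r is a description only. For Ad-Cre transplant 1 against the other 8 tumours r ran from -0.579 to 0.301.

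The threshold changed the shared parts. At 0.15 as many as 8 tumours were gained together, over 1.23% of windows, and at least 4 were gained over 99.5%. At 0.1, chosen after the data had been seen, 9 were gained over 0.0647% and at least 7 over 73.4%. At 0.4 no more than 4 were gained together, over 0.194%.

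**Figure D4:**
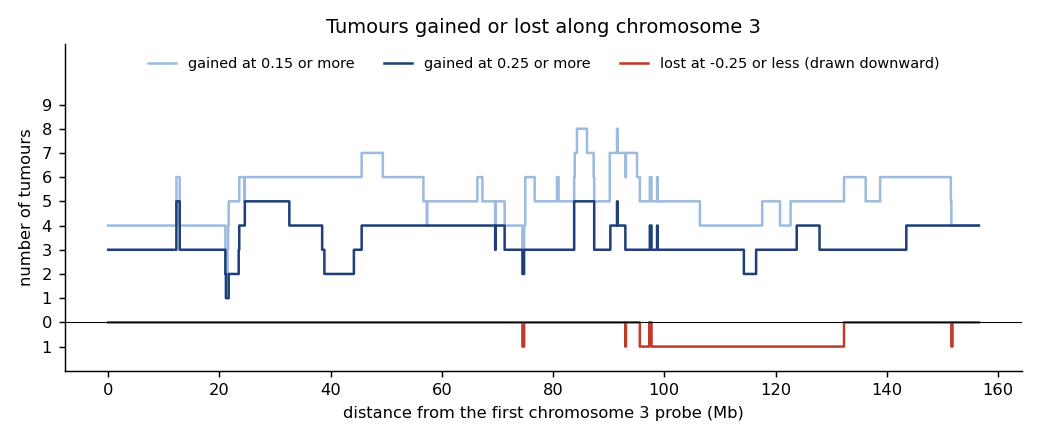
Number of tumours (y axis) gained at 0.25 or more (dark blue), gained at 0.15 or more (light blue) and lost at -0.25 or less (red, drawn downward) at each 100 kb window, against distance from the first chromosome 3 probe in Mb (x axis). At 0.25 the count reaches 5 in 4 places and stays at 3 or more over 93.4% of windows; loss involves 1 tumour at a time.

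Chromosome 3 levels were then compared between the models, a contrast that the choice of the chromosome did not use. The level was 0.27 and 0.01 in the Ad-Cre tumours, a mean of 0.14, against a mean of 0.29 in the 7 MMTV-Cre tumours, which ran from 0.10 to 0.75. The difference of -0.14 was within the spread of the tumours (exact two-sided permutation p = 0.444 over 36 groupings, smallest possible p = 0.0278). The difference was -0.27 without Ad-Cre transplant 1 and -0.02 without Ad-Cre transplant 2. It was -0.07 once the library labelled MMTV-Cre transplant 2 was left out (exact permutation p = 0.5). Both models had tumours on 1 common scan day, per the file headers, and there the means were 0.14 for Ad-Cre and 0.18 for MMTV-Cre, 2 tumours each. That difference was -0.04 (exact permutation p = 1.0, smallest possible p = 0.167).

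Along the chromosome the models lay furthest apart in the block lost in Ad-Cre transplant 1. There the levels were -0.36 and 0.01 in the Ad-Cre tumours and 0.13 to 0.75 in the MMTV-Cre tumours, with no overlap. That block was cut to this loss, so the value of -0.36 was set by the choice of block. The means were -0.18 for Ad-Cre and 0.30 for MMTV-Cre, a difference of -0.48. In the proximal block the 2 Ad-Cre tumours were at 0.64 and 0.01, inside the MMTV-Cre range of -0.01 to 0.73. In the second and last blocks Ad-Cre transplant 2, at 0.02 and 0.01, was also below every MMTV-Cre tumour. The lowest MMTV-Cre levels were 0.14 and 0.12 there, and Ad-Cre transplant 1 lay inside the MMTV-Cre range. With limma across all autosomal windows, 0 of 1546 chromosome 3 windows differed between Ad-Cre and MMTV-Cre at an adjusted p under 0.05, as did 0 of 23354 in all (0%); the smallest adjusted p on chromosome 3 was 0.712. At an unadjusted p under 0.05 there were 366 windows on chromosome 3 (23.7%), against 2.38% of all autosomal windows. All but 1 of the 366 were lower in Ad-Cre, and 360 lay in the lost block, with a median difference of -0.47 and a median SE of 0.148. Neighbouring windows of a block share 1 event of 1 tumour, and without Ad-Cre transplant 1 only 2 such windows were left. Within the common scan day 1 chromosome 3 window passed the adjusted threshold, lower in Ad-Cre, against 0.689% of all windows.

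**Figure D5:**
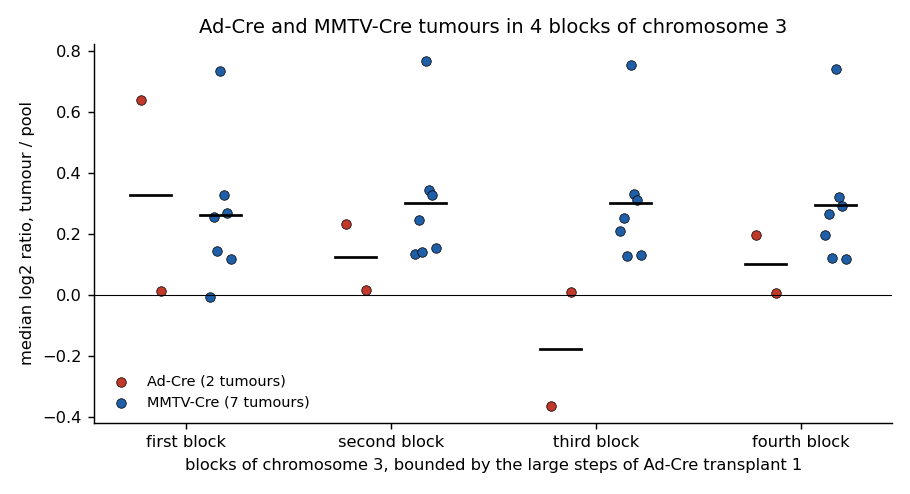
Median log2 ratio of tumour to pool (y axis) in the 4 blocks bounded by the large steps of Ad-Cre transplant 1 (x axis), with red points for the 2 Ad-Cre tumours, blue points for the 7 MMTV-Cre tumours and black bars for group means. The groups overlap in all blocks but the third, where the Ad-Cre points are at -0.36 and 0.01. That block was cut to the loss of Ad-Cre transplant 1, so its low point there was set by the choice of block.

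Among MMTV-Cre tumours the transplants were set against the parous and the nulliparous tumour. The mean chromosome 3 level was 0.33 over 5 transplants and 0.18 over the parous and nulliparous tumours. The difference of 0.15 was within the spread (exact two-sided permutation p = 0.476 over 21 groupings, smallest possible p = 0.0476). Leaving out 1 tumour at a time gave differences from 0.04, without the library labelled MMTV-Cre transplant 2, to 0.22, without the parous tumour. With limma 0 of 1546 chromosome 3 windows passed an adjusted p under 0.05 (0% of all windows), the smallest being 0.460. At an unadjusted p under 0.05 there were 29 chromosome 3 windows (1.88%), a smaller share than the 4.62% of all autosomal windows. All 29 were higher in transplants, but so were 98.4% of the chromosome 3 windows whatever their p. The median difference over chromosome 3 windows was 0.14 with a median SE of 0.16. No scan day held both transplants and other MMTV-Cre tumours, so scan day and this contrast cannot be told apart within a day.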

How the data were processed

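Genomic DNA of 9 tumours was hybridised with pooled tail DNA on 2-colour Agilent arrays (design 027414), 1 array per tumour and no dye swaps, per the labels and file headers. The authors' deposited files hold processed signals, which are spot intensity values after background subtraction, detrending and dye normalisation by Feature Extraction 10.5.1.1, per the file headers, and median spot and background intensity. The deposited log10 ratios give red over green and are rounded in the series table. The genome build is not given in the sources used here. No sequence of a probe was in the files, so none is shown.

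Here log2 ratios of the processed signals were computed. Spots whose reference signal was not well above background, and outlier spots, were left out (1597 to 2115 per array), and spots of 1 probe were averaged. Bins of 5 probes were segmented by penalised least squares (PELT, penalty factor 10, at least 2 bins), tested on simulated data. Group contrasts used limma 3.58.1 (R 4.3.3, lmFit and eBayes, Benjamini-Hochberg over 23354 autosomal windows of 100 kb) and exact permutation. Named segments were those gained or lost over at least 5 Mb, with their breakpoints, the parts gained in most tumours or 1 fewer, and short loci at least 0.5 from the chromosome's level in 3 or more tumours; short loci at 0.3 in fewer tumours were added after the data were seen. The chromosome, its rules and the gene list were chosen with earlier results of these data known. Alternatives were normexp (offset 50), loess, mode centring, the series table, no spot filter, other penalties, thresholds and windows, scan day and each tumour left out. The number of arrays limits the precision. Segments, windows and permutations were computed in Python 3.11.15 (numba 0.67.0, numpy 2.4.6).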

Additional observations from a re-analysis of the deposited data

Results flagged for a closer look

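The library labelled MMTV-Cre transplant 2 lay far above the other tumours in its chromosome 3 level of 0.75. It did so among all 9 tumours and among the 7 MMTV-Cre tumours. The same library stood apart in the middle stretch of the chromosome, at 0.76, in both sets, and in the distal stretch, at 0.75, among the MMTV-Cre tumours. It is also the library in which the chromosome 11 run was at 97.8% of its flanks.

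Ad-Cre transplant 1 stood apart from the other 8 tumours in the share of chromosome 3 lost, 23.4%, and in the distal minus the proximal stretch, -0.83. The nulliparous tumour stood apart among the MMTV-Cre tumours in that difference, 0.21. MMTV-Cre transplant 3 did so in the share lost, 0.197%, among the transplants and among all MMTV-Cre tumours. The others there were at 0%, so any loss at all would have stood apart; it is the single stretch chr3:77501391-77809294.

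These 10 came from 33 sets of tumours, in which a single extreme tumour was looked for by the size of its gap to the next. Chance marks about 1 in 20 such sets, and the sets overlap, since they hold the same tumours.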

How the results depend on the processing

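No paired analysis was possible because replicate numbers come from accession order alone. The mean level and both level contrasts kept their direction and their side of the threshold, or stayed within 1 SD of the tumours, under every alternative run. The mean distal minus proximal difference (-0.07) did too, except that it was 0.03 without Ad-Cre transplant 1. The mean gained share also stayed within 1 SD, but with an SD of 43.1 that rule can hardly fail. Against 38.0% it was 57.8% at a threshold of 0.15, 55.0% with normexp and 16.2% at a threshold of 0.4. Normexp raised the chromosome 3 level in every tumour and its mean from 0.25 to 0.37. With an SD of 0.21 that still counts as within 1 SD, so the rule is wide for the level too. Normexp gave a chromosome 3 level of 1.08 in the library labelled MMTV-Cre transplant 2, 0.37 in Ad-Cre transplant 1 and 0.37 in the parous tumour. The percentages of DNA given above thus depend on the background correction. Centred on the mode, Ad-Cre transplant 2 was at -0.02.

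The length gained in 4 or more tumours (63.8 Mb) was 153.5 Mb with normexp, 153.8 Mb at a threshold of 0.15 and 0.3 Mb at 0.4, and ran from 11.9 to 63.8 Mb with a tumour left out. The mean number of breakpoints (5.0) was 20.8 with no spot filter, 14.7 and 2.22 with penalty factors of 5 and 20, 3.33 with normexp and 0.444 with only segments of at least 1 Mb; the penalty and the length limit do this by construction. Chromosome 3 windows called between the models went to 1 within the common scan day, and between transplants and other MMTV-Cre tumours to 3 with no spot filter (0.163% of all windows called); the cause was not tested. Loci of few probes with weak reference signal have the least signal over background here.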
